A study of Homo sapiens with 6 samples.

Results

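The 10 genes IL6R, IL6ST, LIFR, JAK1, JAK2, STAT3, STAT5A, STAT5B, SOCS2 and SOCS3 were chosen by symbol as the receptors, kinases, transcription factors and feedback inhibitors of interleukin-6-type cytokine signaling. They are 10 of 35554 genes listed in the count table, and all 10 were among the 19711 genes that passed the filter on low counts. RNA-Seq was performed on parental LNCaP, an androgen-responsive line from a human metastatic prostate carcinoma, and on its enzalutamide-resistant derivative, LNCaP-enzaR, with 3 flasks of each. Enzalutamide blocks the androgen receptor. According to the study's methods, LNCaP-enzaR was selected from its parent under continuous enzalutamide and maintained on less of the drug, so it is a single derived line, and whether the drug was present at harvest is not stated. The flasks are labeled biological replicates of a line, and p-values therefore measure the spread between flasks.

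Cytokines of the interleukin-6 (IL-6) family bind a ligand-specific receptor and recruit gp130, the signal-transducing subunit encoded by IL6ST. Janus kinases (JAKs) attached to the receptors then phosphorylate STAT transcription factors, STAT3 above all, which enter the nucleus and induce target genes. Among those targets are the SOCS genes, whose products bind receptors or JAKs and shut the signal off. In prostate cancer cells, IL-6 signaling and STAT5 have both been studied for their crosstalk with the androgen receptor.

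Libraries held 77759122 to 98616465 counts. Expression is given as CPM, counts per 1000000 after TMM scaling of the libraries, and log2 fold changes compare LNCaP-enzaR with parental, each with its SE. The threshold asked for a 1.5-fold change or more together with an adjusted p no higher than 0.05 (edgeR quasi-likelihood test, Benjamini-Hochberg over all genes tested). All 8 LNCaP markers were detected in every library, with a summed level of 4723 to 4849 CPM in parental and 3037 to 3333 CPM in LNCaP-enzaR, FOLH1 and KLK3 among them. KLK3, which encodes prostate-specific antigen, went from 1190 ± 42.1 to 141 ± 9.26 CPM (SD, n = 3 each). Of the 8 markers, 5 were lower past the threshold, 1 was higher, the keratin gene KRT8 (397 to 886 CPM), and 2 did not pass. The 13 stromal, endothelial and leukocyte markers in the table summed to 20.5 to 23.7 CPM in parental and 12.7 to 13.4 CPM in LNCaP-enzaR, mostly from COL1A1 and VWF. Of the 5 tested, COL1A1 fell (log2 fold change −1.64), LUM (1.78) and PDGFRB (1.43) rose, and 2 did not pass. The T cell marker CD3E had at most 1 count in any library. The part of these markers in the results was not tested. Transcripts of the mitochondrial genome took 6.72% to 7.06% of the counts in parental and 14.8% to 15.5% in LNCaP-enzaR, and the log2 fold changes of the 10 genes moved by at most 0.005 when these transcripts were left out.

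Of the 10 genes, 3 were higher and 1 was lower in LNCaP-enzaR past the threshold. SOCS2 rose 3.58-fold, JAK2 2.83-fold and IL6ST 1.79-fold, while STAT5A fell from about 1 CPM to at most 1 count in a library. IL6R, LIFR, JAK1, STAT3, STAT5B and SOCS3 did not pass. Across all genes tested, 42.7% passed the threshold, 23.3% with higher and 19.5% with lower expression in LNCaP-enzaR, so a share of 40.0% among the 10 genes was near that of the transcriptome. At an adjusted p of at most 0.05 with no limit on the fold, 7 of the 10 genes passed, against 66.3% of all genes. The libraries of the lines did not overlap for 8 of the 10, against 70.6% of all genes. STAT5A (79, 91 and 93 counts in parental) passed the filter on low counts only through parental. SOCS3 (10, 13 and 12 counts in LNCaP-enzaR) passed it only through LNCaP-enzaR. Both thus entered these shares through the line where they were higher.

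**Figure D1:**
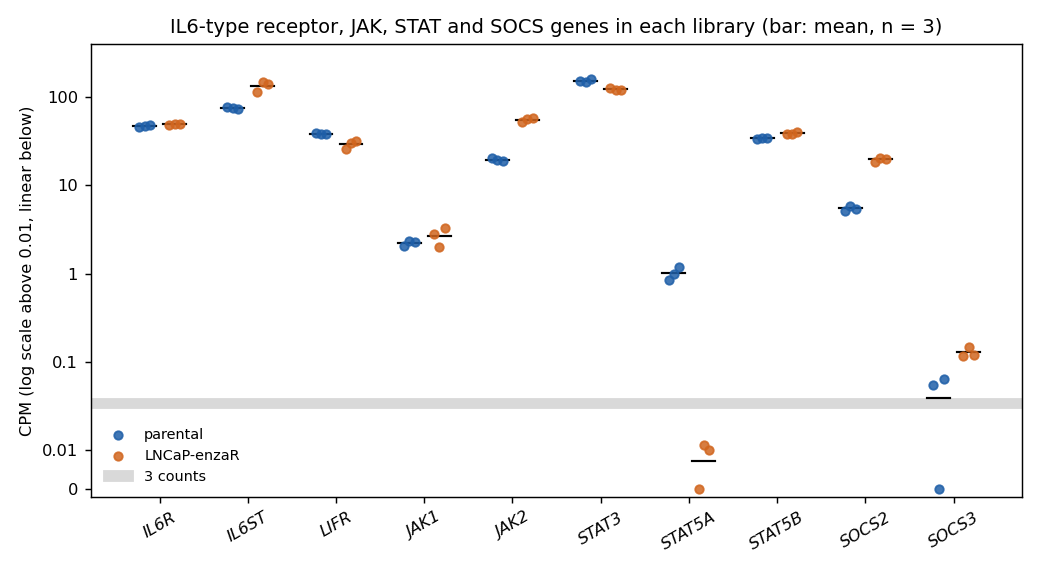
CPM of the 10 genes in each library, on a log axis above 0.01 CPM and a linear one below, with parental in blue, LNCaP-enzaR in orange, the mean of 3 libraries as a bar and the CPM of 3 counts as a grey band. IL6ST, JAK2 and SOCS2 are higher in all 3 LNCaP-enzaR libraries, and STAT5A drops below the band there.

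Both STAT5 genes lie side by side on chromosome 17 in opposite orientation and encode near-identical proteins, so the sequence that they share sets how well their reads can be told apart. In the canonical GENCODE transcripts, the longest identical run was 429 bases, all of it coding, in exons 6 to 9 of each gene. It spans chr17:42299764-42301277 on the plus strand for STAT5A and chr17:42218328-42219829 on the minus strand for STAT5B (GRCh38). Its first 150 bases, the length of a read in this study, are shown because a read from them fits either gene.

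STAT5A and STAT5B, shared: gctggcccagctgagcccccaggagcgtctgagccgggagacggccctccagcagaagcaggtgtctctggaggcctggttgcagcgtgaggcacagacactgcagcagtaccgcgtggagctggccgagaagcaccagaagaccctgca

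Of all 75-base windows in STAT5A transcripts, 6.12% were also found in another gene, which was STAT5B. The share was 3.24% for STAT5B, 4.84% for JAK1, 0.826% for IL6ST, 0.055% for STAT3 and 0 for the other 5 genes. Most of STAT5A could therefore be counted by its own sequence. In GENCODE v44, 6.5% of STAT5A exon bases also overlap exons of STAT5B, and 3.43% of STAT5B exon bases overlap those of STAT5A. For JAK1, 4.99% of the exon bases overlap other genes.

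Promoter windows from RefSeq (GRCh38.p14, 250 bases before to 50 after a start site) were at hand for 9 of the 10 genes, in 19 windows, with SOCS2 as the missing entry. They were searched on both strands for the palindromic STAT motif, TTCNNNGAA, and for a wider form with 4 free bases, not 3, between TTC and GAA. One form or the other was present in 13.5% of 35116 promoters of this length. Of the 19 windows, 3 held a match, shown in capitals wherever a window is printed. STAT5A had TTCCTCTGAA at position −229 from a start site, and LIFR had TTCCTTGAA at −165 and TTCATCGAA at −182, each in a window of its own. A window of STAT5A and the window of STAT5B are given as those of neighboring genes, of which only STAT5A passed the threshold. Windows of JAK2 and IL6ST, without a match, are given as those of genes that rose. The STAT5A window shown is the only one of that gene with a match. STAT5A and JAK2 each have further windows without a match, which are not printed.

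STAT5A promoter, chr17:42287189-42287488, plus strand: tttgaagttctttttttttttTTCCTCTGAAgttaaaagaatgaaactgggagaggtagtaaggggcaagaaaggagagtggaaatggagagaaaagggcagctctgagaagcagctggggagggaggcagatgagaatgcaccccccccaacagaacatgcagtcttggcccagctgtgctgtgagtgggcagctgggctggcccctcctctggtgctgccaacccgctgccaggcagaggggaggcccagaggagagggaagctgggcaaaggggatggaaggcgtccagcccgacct

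STAT5B promoter, chr17:42276342-42276641, minus strand: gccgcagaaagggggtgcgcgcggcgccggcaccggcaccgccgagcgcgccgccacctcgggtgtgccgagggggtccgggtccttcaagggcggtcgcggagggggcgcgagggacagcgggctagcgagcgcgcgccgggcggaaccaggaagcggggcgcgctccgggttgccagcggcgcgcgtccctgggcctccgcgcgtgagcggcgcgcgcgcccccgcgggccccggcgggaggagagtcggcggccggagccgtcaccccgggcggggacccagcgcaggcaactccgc

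JAK2 promoter, chr9:4984140-4984439, plus strand: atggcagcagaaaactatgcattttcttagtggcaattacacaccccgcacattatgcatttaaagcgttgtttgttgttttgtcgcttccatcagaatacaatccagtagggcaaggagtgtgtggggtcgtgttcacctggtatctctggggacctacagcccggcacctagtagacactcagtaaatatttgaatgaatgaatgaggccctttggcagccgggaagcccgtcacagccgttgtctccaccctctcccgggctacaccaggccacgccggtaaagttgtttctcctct

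IL6ST promoter, chr5:55994914-55995213, minus strand: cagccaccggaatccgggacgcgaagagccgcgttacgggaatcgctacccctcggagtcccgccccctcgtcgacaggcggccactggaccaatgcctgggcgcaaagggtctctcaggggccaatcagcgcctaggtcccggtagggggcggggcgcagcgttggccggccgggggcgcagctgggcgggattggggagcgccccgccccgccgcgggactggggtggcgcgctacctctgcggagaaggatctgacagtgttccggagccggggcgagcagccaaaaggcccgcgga

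Among the receptors, gp130 was higher in the resistant line, while IL6R and LIFR did not pass the threshold. IL6ST (ENSG00000134352.20, chromosome 5, 55935095 to 55995022, GRCh38) measured 77.8, 74.4 and 73.8 CPM in parental replicates 1 to 3 and 115, 149.6 and 139.9 CPM in LNCaP-enzaR. Every LNCaP-enzaR library lay above every parental one, with the widest spread among the resistant libraries. The log2 fold change was 0.84 (SE 0.081, edgeR adjusted p = 3.91e-07). In its exons, 6.61% of the bases overlap those of another gene. A change in the share of cells expressing a gene and a change in RNA per cell cannot be told apart in such bulk samples.

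IL6R (ENSG00000160712.13, chromosome 1, 154405193 to 154469450) encodes the IL-6-binding subunit. It measured 45.9, 46.6 and 48.8 CPM in parental and 47.9, 49.9 and 50.2 CPM in LNCaP-enzaR, and the groups overlapped. Its log2 fold change was 0.07 (SE 0.059, edgeR adjusted p = 0.345), with a 95% interval of −0.06 to 0.19.

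LIFR (ENSG00000113594.10, chromosome 5, 38474668 to 38608354) encodes the receptor for leukemia inhibitory factor, which signals as a pair with gp130. It stood at 38.7, 38.2 and 38.5 CPM in parental and at 25.6, 30.5 and 32.0 CPM in LNCaP-enzaR. All resistant libraries were below the parental ones, yet the change (log2 −0.39, SE 0.079, edgeR adjusted p = 0.000565) was 1.31-fold, short of 1.5-fold. An antisense gene, LIFR-AS1, covers the 5.17% of LIFR exon bases that lie in another gene, and it measured 1.72 ± 0.374 and 1.88 ± 0.080 CPM (SD, n = 3 each).

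Because a ratio of genes within a library does not depend on scaling, receptor balance was also compared per kilobase of exon. In parental cells there were 0.493, 0.510 and 0.518 LIFR counts for each IL6ST count, and in LNCaP-enzaR 0.220, 0.202 and 0.227. For IL6R, the ratio to IL6ST was 1.02, 1.08 and 1.14 in parental and 0.715, 0.575 and 0.619 in LNCaP-enzaR. Neither ratio overlapped between lines. The log2 ratios differed by −1.23 (SE 0.054) and −0.77 (SE 0.104), each at the smallest p that 3 against 3 libraries allow (two-sided exact permutation test, p = 0.10, adjusted over 5 ratios 0.125).

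**Figure D2:**
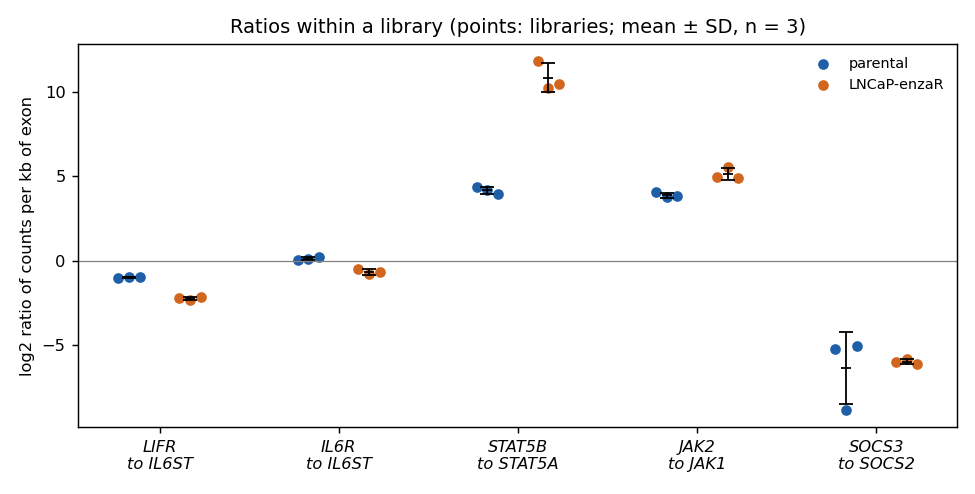
Log2 ratio of counts per kilobase of exon between pairs of genes within each library, with 0.5 added to every count and the mean ± SD of 3 libraries in black. LIFR and IL6R lose ground to IL6ST in all 3 LNCaP-enzaR libraries (mean log2 ratios of −2.21 and −0.66, against −0.98 and 0.11 in parental), while the SOCS3 to SOCS2 ratio overlaps between lines.

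Of the kinases, JAK2 rose and JAK1 did not pass the threshold. JAK2 (ENSG00000096968.14, chromosome 9, 4984390 to 5129948), the kinase used by growth hormone, prolactin and erythropoietin receptors as well as by gp130, measured 20.3, 19.2 and 19.0 CPM in parental and 51.8, 57.0 and 57.3 CPM in LNCaP-enzaR. The lines did not overlap, with 1.503 as the log2 fold change (SE 0.068, edgeR adjusted p = 1.12e-10). No exon base of JAK2 overlaps another gene.

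JAK1 (ENSG00000162434.13, chromosome 1, 64833229 to 65067754), the main kinase of gp130, was sparse in both lines. It measured 2.04, 2.33 and 2.27 CPM in parental and 2.78, 2.02 and 3.27 CPM in LNCaP-enzaR, with 178 to 324 counts in a library. The groups overlapped, and the difference on the log2 scale, 0.28 (SE 0.176, edgeR adjusted p = 0.173), had a 95% interval of −0.10 to 0.66. Without LNCaP-enzaR replicate 2, the lowest of the 3, it was 0.45 (edgeR adjusted p = 0.0255), still under 1.5-fold, and without replicate 3, the highest, it was 0.12 (edgeR adjusted p = 0.596).

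Per kilobase of exon, JAK2 exceeded JAK1 13.7- to 16.5-fold in parental and 29.2- to 47.0-fold in LNCaP-enzaR. The log2 ratio differed by 1.25 (SE 0.233, two-sided exact permutation test, p = 0.10, adjusted 0.125), with no overlap. Of the other kinases of the family, TYK2 measured 45.8 CPM in parental and 56.0 CPM in LNCaP-enzaR (log2 fold change 0.29) and was not past the threshold. JAK3, a kinase of lymphoid cytokine receptors, rose from 10 to 12 counts in a library to 45 to 60 (log2 fold change 2.17, SE 0.375, edgeR adjusted p = 0.000144) but stayed below 1 CPM. It passed the filter on low counts only with the LNCaP-enzaR libraries.

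Among the STAT genes, STAT5A was nearly absent from LNCaP-enzaR while STAT3 and STAT5B stayed among the abundant genes of the set. STAT5A (ENSG00000126561.18, chromosome 17, 42287547 to 42311943), a transcription factor known for prolactin signaling in the mammary gland, had 79, 91 and 93 counts in parental libraries and 0, 1 and 1 in LNCaP-enzaR. These correspond to 0.854, 1.00 and 1.18 CPM in parental. Since every LNCaP-enzaR library was under 3 counts, only a bound can be given: STAT5A was at least 30.7-fold lower (3 counts in each LNCaP-enzaR library, which covers counting error only). The edgeR adjusted p was 4.57e-08.

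STAT5B (ENSG00000173757.10, chromosome 17, 42199177 to 42276707) measured 33.5, 34.4 and 34.8 CPM in parental and 38.7, 37.8 and 40.5 CPM in LNCaP-enzaR. The libraries did not overlap, but the change (log2 0.19, SE 0.062, edgeR adjusted p = 0.0156) was 1.14-fold, under the limit. STAT5A made up 2.48% to 3.29% of the counts of both STAT5 genes in parental and at most 0.030% in LNCaP-enzaR. Per kilobase, STAT5B exceeded STAT5A 15.4- to 20.6-fold in parental and at least 586-fold in LNCaP-enzaR, with no overlap (two-sided exact permutation test on log2 ratios, p = 0.10, adjusted 0.125). When both genes were summed before the fit, the log2 fold change was 0.145, and the sum was not past the threshold (edgeR adjusted p = 0.0519).

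STAT3 (ENSG00000168610.16, chromosome 17, 42313324 to 42388540), the principal STAT of IL-6 signaling, measured 152, 149 and 159.7 CPM in parental and 128, 119.9 and 119.4 CPM in LNCaP-enzaR. All resistant libraries were lower, by −0.33 on the log2 scale (SE 0.055, edgeR adjusted p = 0.000109), a change of 1.26-fold that is short of the limit. Of the other STAT genes, 3 of 4 were tested. STAT2, a transcription factor of interferon signaling, rose from 20.4 to 41.2 CPM (log2 fold change 1.01, SE 0.078, edgeR adjusted p = 3.51e-08). STAT6 measured 0.711 CPM in parental and 0.909 CPM in LNCaP-enzaR and was not past the threshold. STAT4, with at most 2 counts in a library, was not tested.

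Feedback inhibitors differed by gene. SOCS2 (ENSG00000120833.14, chromosome 12, 93569814 to 93583487), which restrains growth hormone receptor signaling and is a textbook STAT5 target, measured 5.13, 5.89 and 5.44 CPM in parental and 18.4, 20.3 and 20.1 CPM in LNCaP-enzaR. All LNCaP-enzaR libraries were above the parental ones (log2 fold change 1.84, SE 0.087, edgeR adjusted p = 1.89e-10). Its antisense gene SOCS2-AS1, which covers the 4.28% of SOCS2 exon bases shared with another gene, rose as well, with 0.274 ± 0.055 CPM in parental and 1.63 ± 0.099 CPM in LNCaP-enzaR (SD, n = 3 per line; log2 fold change 2.57, edgeR adjusted p = 3.50e-07). The strand setting of the counting is not stated, and reads from the overlap cannot be told apart.

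SOCS3 (ENSG00000184557.4, chromosome 17, 78356778 to 78360077), the inhibitor that binds gp130 and JAKs, was near the limit of detection. It had 5, 0 and 5 counts in parental libraries and 10, 13 and 12 in LNCaP-enzaR. The counts did not overlap, but the log2 fold change of 1.70 (SE 0.779) did not pass (edgeR adjusted p = 0.0691). Leaving out parental replicate 2, the library at 0, lowered it to 1.10. The SOCS3 to SOCS2 ratio per kilobase overlapped between the lines, and its log2 difference was 0.39 (SE 1.24, two-sided exact permutation test, p = 1.0).

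Of the other SOCS family genes, 6 of 6 were tested and 0 passed the threshold by edgeR, against 42.7% of all genes tested, and 0 by DESeq2. By edgeR, 4 had an unadjusted p under 0.05. CISH, like SOCS2 a STAT5 target, measured 2.52 ± 0.166 CPM in parental and 2.92 ± 0.568 CPM in LNCaP-enzaR (SD, n = 3 each). SOCS5 (log2 fold change 0.42) and SOCS6 (0.40) stood higher and SOCS4 (−0.23) and SOCS7 (−0.12) lower by amounts under 1.5-fold, and SOCS1 had 7 to 33 counts in a library.

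Per kilobase of exon, the order of the levels changed between the lines. In parental cells STAT3 was highest at 13.7 ± 0.475 CPM per kilobase, followed by IL6R at 6.74 ± 0.222 and IL6ST at 6.25 ± 0.182 (SD, n = 3 each). LIFR, STAT5B and JAK2 followed at 3.17, 2.83 and 2.47, then SOCS2 at 0.847. JAK1 at 0.168 and STAT5A at 0.159 overlapped each other, and SOCS3 was last. In LNCaP-enzaR, IL6ST at 11.2 ± 1.46 and STAT3 at 10.9 ± 0.425 overlapped at the top, and JAK2 at 6.998 ± 0.393 had reached the level of IL6R at 7.05 ± 0.180. STAT5B at 3.22 and SOCS2 at 3.03 overlapped as well, LIFR stood at 2.41, and JAK1, SOCS3 and STAT5A were the lowest. Lengths are of all annotated exons, so genes with long unused exons are understated.

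**Figure D3:**
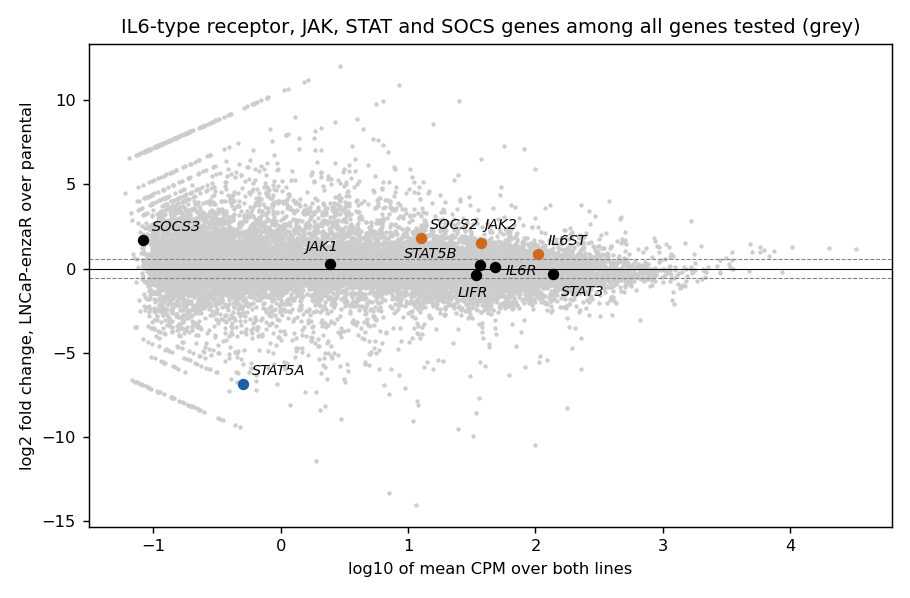
Log2 fold change of all 19711 genes tested against the log10 of their mean CPM over both lines, with dashed lines at 1.5-fold. IL6ST, JAK2 and SOCS2 are orange, STAT5A is blue and the 6 genes not past the threshold are black. The value plotted for STAT5A is fitted near 0 counts and is no bound.

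Other genes of the pathway came from lists of known roles. Together they named 71 genes, of which 53 were tested, with 18 higher, 6 lower and 29 not past the threshold. The 24 of 53 that passed are a share near the 42.7% of all genes tested. Some of the 24, JAK3, CNTFR, IL31RA and IGF1 among them, passed the filter on low counts only through the line where they were higher. The median log2 fold change of the 53 was 0.29, against 0.01 over all genes tested.

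Among the receptors of the gp130 family outside the 10 genes, 4 of 5 were higher, against 23.3% of all genes tested. IL11RA, the interleukin-11 receptor, rose from 2.99 to 6.75 CPM (log2 fold change 1.18, SE 0.115, edgeR adjusted p = 4.81e-07), although 32.8% of its exon bases lie in other genes. IL27RA, a receptor subunit for interleukin-27, rose from 0.638 to 3.61 CPM (2.50). CNTFR, which binds ciliary neurotrophic factor, and IL31RA also rose, at no more than 50 and 27 counts in a library. In parental they had 4 to 15 and 0 to 7 counts, and they passed the filter only with the LNCaP-enzaR libraries. OSMR, the oncostatin M receptor subunit that lies beside LIFR, measured 3.82 ± 0.423 and 3.07 ± 0.349 CPM (SD, n = 3 each) and was not past the threshold (log2 fold change −0.31).

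Ligand genes were sparse. Of 10 listed, 5 were tested, with 2 higher and 1 lower, against 23.3% and 19.5% of all genes tested. LIF, the most abundant, measured 6.33 CPM in parental and 9.38 CPM in LNCaP-enzaR (log2 fold change 0.57, SE 0.099, edgeR adjusted p = 0.000152), a change just short of 1.5-fold. IL11 rose from 62 to 98 counts in a library to 113 to 129 (0.67). CNTF, ciliary neurotrophic factor, fell from 0.684 to 0.289 CPM (−1.24), and 38.5% of its exon bases lie in another gene. CLCF1 measured 0.325 and 0.300 CPM, and CTF1 and IL27 had at most 17 counts in a library. Only 7 of the 10 listed were in the count table, and IL6, OSM and EBI3 were not analysed here.

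**Figure D4:**
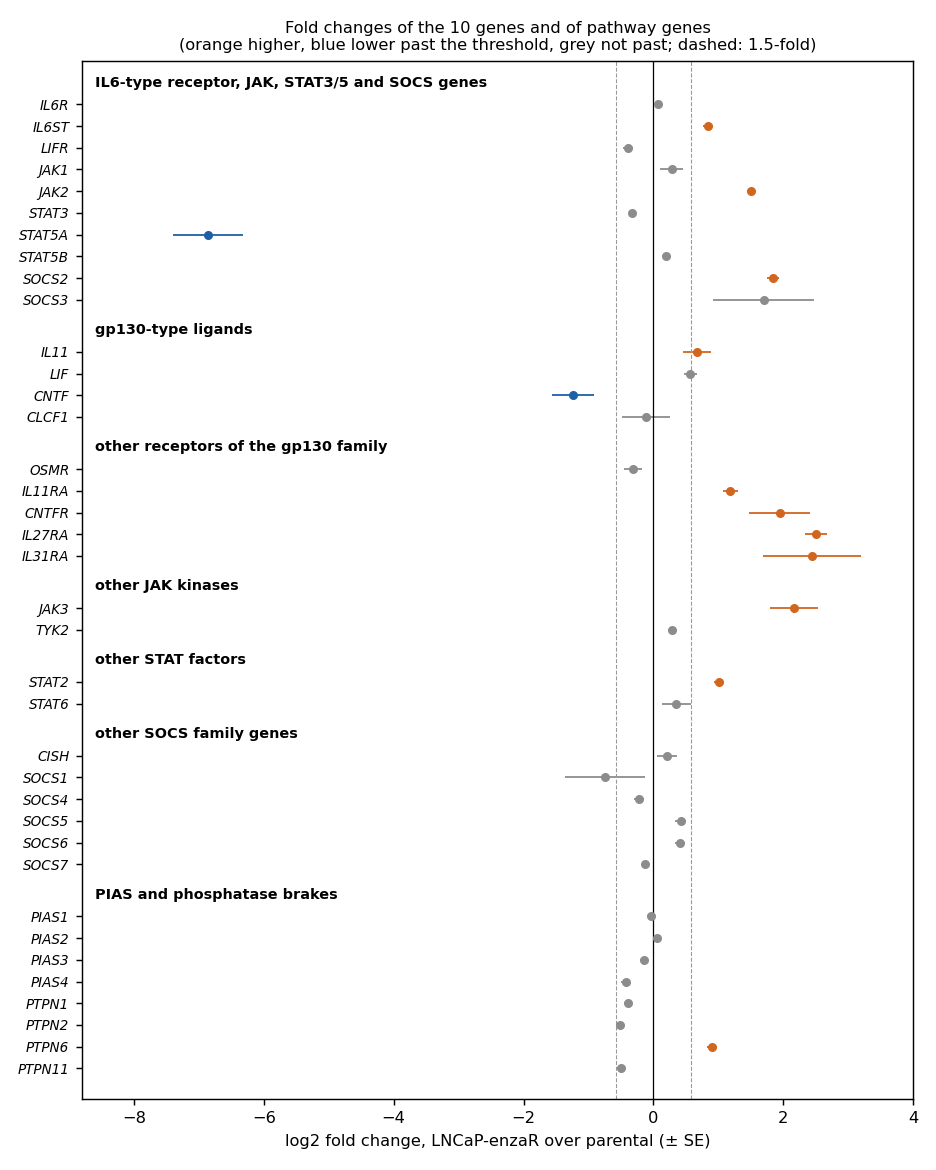
Log2 fold change with SE of the 10 genes and of reported genes in the ligand, receptor, JAK, STAT, SOCS and inhibitor lists, orange where higher and blue where lower past the threshold and grey where not past it, with dashed lines at 1.5-fold. IL6ST, JAK2 and SOCS2 sit right of the dashed line together with 4 of 5 other receptors, and all 6 other SOCS genes are grey. Of these receptors, CNTFR and IL31RA passed the filter on low counts only with the LNCaP-enzaR libraries, as JAK3 did. Of all genes tested, 23.3% were higher and 42.7% passed in either direction. The STAT5A point is fitted near 0 counts and is no bound.

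Of 8 PIAS and phosphatase genes, which dampen JAK-STAT signaling, 1 rose and 7 were not past the threshold, which 42.7% of all genes tested passed. PTPN6, which encodes the phosphatase SHP-1, rose from 25.5 to 47.7 CPM (log2 fold change 0.90, SE 0.070, edgeR adjusted p = 4.32e-08). PTPN2 (−0.52) and PTPN11 (−0.50), which encodes SHP-2, were lower by less than 1.5-fold.

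Of 8 receptors listed as upstream of STAT5, most of them through JAK2, 6 were tested and 2 rose, against 23.3% of all genes tested. The other two, IL2RG and IL7R, which use JAK1 and JAK3, had at most 9 counts in a library. GHR, the growth hormone receptor, rose from 64.6 to 113 CPM (log2 fold change 0.80, SE 0.059, edgeR adjusted p = 2.14e-08) and LEPR, the leptin receptor, from 0.412 to 1.04 CPM (1.34).

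Target genes went both ways. Of 23 STAT3 targets listed, 15 were tested, with 7 higher and 4 lower, against 23.3% and 19.5% of all genes tested. BCL6, a transcriptional repressor that is a target of STAT3 and STAT5, rose from 24.5 to 69.5 CPM (log2 fold change 1.51, SE 0.062, edgeR adjusted p = 4.64e-11). CEBPD, a transcription factor of the acute-phase response, fell from 9.06 to 0.178 CPM (−5.65, SE 0.194, edgeR adjusted p = 6.83e-12). The other 6 that rose did so by 0.73 to 2.91 on the log2 scale, and the other 3 that fell were HIF1A (−0.89), BCL3 (−1.02) and PIM1 (−0.78). The gene at 2.91 had 0 to 11 counts in parental libraries and passed the filter only with the LNCaP-enzaR libraries. Of 10 STAT5 targets, which share BCL6, PIM1, BCL2L1, CISH and OSM with other lists, 7 were tested. BCL6 rose, PIM1 and IGF1 fell, and CCND1, the gene of cyclin D1, was lower by less than 1.5-fold (−0.49). IGF1 went from 94 to 127 counts in a library to 8 to 11 (−3.44), with 82.5% of its exon bases inside another gene. It passed the filter on low counts only through the parental libraries.

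The nearest tested protein-coding genes, 2 on each side of each of the 10 genes, numbered 32 apart from the 10 genes themselves. Of these, 9 were higher (28.1%) and 4 lower (12.5%) past the threshold, against 23.3% and 19.5% of all genes tested. Some of the 9, with means of 0.019 to 0.087 CPM in parental, passed the filter on low counts only through LNCaP-enzaR. On chromosome 17, the order along the chromosome is STAT5B, STAT5A, STAT3 and CAVIN1, which encodes a coat protein of caveolae. CAVIN1 fell, with 4.15 ± 0.746 CPM in parental and 0.376 ± 0.093 CPM in LNCaP-enzaR (SD, n = 3 per line; log2 fold change −3.47, edgeR adjusted p = 3.56e-09), whereas STAT5B and STAT3 on either side of STAT5A were not past the threshold. ATP6V0A1, the next tested protein-coding gene after CAVIN1, rose from 41.5 to 90.7 CPM (log2 fold change 1.13, edgeR adjusted p = 3.07e-10). On chromosome 5, IL31RA lies directly before IL6ST and rose as described.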

How the data were processed

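Per the study's methods, the authors trimmed reads with Cutadapt 4.5, aligned them to GRCh38.p13 with STAR 2.7.11a and the GENCODE v38 annotation, and counted them per gene with featureCounts 2.0.2. The deposited table holds raw counts, not normalized. Strand and multi-mapping settings are not given in the sources used here, so near-identical, overlapping and antisense genes are uncertain.

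Counts were tested with edgeR 4.0.16 (R 4.3.3): filterByExpr, TMM, robust quasi-likelihood F-test without covariates, Benjamini-Hochberg adjustment. Limits (adjusted p 0.05, 1.5-fold) are those of the study, which used DESeq2, run here (1.42.0) as an alternative. Within-library ratios used a pseudocount of 0.5. The edgeR step was tested on simulated counts. GENCODE v44 served for strand, exon lengths and overlap. Genes and lists were chosen with earlier results of these data known. The genes of the ligand, receptor, JAK, STAT and SOCS lists are named, and of other lists the 3 with the smallest p. Some genes that enter the counts are not reported here. Same-numbered replicates were not paired, since their deviations from the group means correlated at −0.211 to 0.00849 across genes.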

Additional observations from a re-analysis of the deposited data

How the results depend on the processing

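The fits were repeated with DESeq2, with 3 other scalings (RLE, upper quartile, totals alone), unfiltered, with a floor of 10 counts per library, without mitochondrial genes, with a replicate block, and without each library in turn. In all 138 values from these fits, at the 1.5-fold limit, the 10 genes kept their direction and their side of the threshold. STAT5A and SOCS3 had no value under the floor of 10 counts. Log2 fold changes ranged from 0.76 to 0.95 for IL6ST, 1.47 to 1.60 for JAK2, 1.79 to 1.94 for SOCS2, and 1.10 to 2.18 for SOCS3 (adjusted p 0.0556 to 0.213), whose counts limit any statement on it. Upper-quartile scaling moved all genes by a median of 0.10. The summed STAT5 genes ranged from 0.11 to 0.25. With no minimum fold, 13074 genes, 7 of the 10 genes and 37 pathway genes passed, and with at least 2-fold 5561, 3 and 16 did, IL6ST losing its call. With the replicate block, 8212 genes passed against 8425, and no call among the 10 genes changed.

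The difference in the log2 STAT5B to STAT5A ratio was 4.28 with 5 counts added, against 6.65. The SOCS3 to SOCS2 difference, 0.39, reversed to −0.83 with 5 counts added, and ranged from −0.85 (without parental replicate 2) to 1.04 when single libraries were dropped. Without a pseudocount, neither ratio had a value.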

Other observations

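On chromosome 9, both tested protein-coding genes that follow JAK2 were also higher in LNCaP-enzaR. They were chosen after their values were seen. RLN2, which encodes the hormone relaxin, measured 0.433 ± 0.065 CPM in parental and 5.26 ± 0.400 CPM in LNCaP-enzaR (SD, n = 3 per line; log2 fold change 3.59, edgeR adjusted p = 1.38e-10), and has a near-identical copy with which reads may be shared. INSL6, whose annotated span overlaps the end of JAK2, went from 0.019 ± 0.023 CPM, a level under 3 counts, to 0.864 ± 0.128 CPM. AK3 and RCL1, which precede JAK2, measured 79.9 and 118 CPM and 39.3 and 50.5 CPM in parental and LNCaP-enzaR. Both were higher by less than 1.5-fold and so not past the threshold (log2 fold changes of 0.57 and 0.36, edgeR adjusted p = 5.71e-06 and 9.05e-05).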
